A study of Mus musculus with 3 samples.

Results

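The Schlafen genes are a mouse gene family that sits in 1 cluster on chromosome 11. The 7 protein-coding genes Slfn1, Slfn2, Slfn3, Slfn4, Slfn5, Slfn8 and Slfn9 were taken by their symbols, out of 55450 annotated genes that 2 quantifications list, of which 21951 are protein-coding. The RNA sequenced was that of the chromatin fraction, where transcripts being made or kept on chromatin are found, after removal of ribosomal RNA. The cells were primary macrophages grown from bone marrow of C57BL/6J mice, with no further allele named. All of them received 100 ng/ml Lipid A, the part of bacterial lipopolysaccharide that Toll-like receptor 4 binds, for 12 hours, then 12 hours without it after a wash, then 100 ng/ml again for 50 minutes. The labels record no age of the mice. There are 3 libraries, which the labels number as biological replicates 1, 2 and 3, in this single group, and 1 donor is named in the labels of all 3. The starting amounts of RNA were 1000, 250 and 500 ng in that order. No untreated or singly treated cells were analysed here, so every value is a level and none is a response to Lipid A. Whether each had its own animal or culture is not said, so an SD or p-value covers the spread of these samples alone, which may be technical.

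Schlafen proteins share an N-terminal region with a nuclease-like fold, and several are known to bind or cut transfer RNA or ribosomal RNA. The family has short proteins (Slfn1 and Slfn2), proteins of middle length (Slfn3 and Slfn4) and long proteins that add a helicase-like region (Slfn5, Slfn8 and Slfn9). Many of the genes are known to be induced by type I interferon, which macrophages release when Toll-like receptor 4 signals, and the founding members were described in developing T cells. Slfn2 is known to keep T cells and monocytes quiescent and able to survive. Slfn4 is known as a macrophage gene that falls during differentiation and rises with Toll-like receptor and interferon signals.

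All 7 genes had a TPM, a relative abundance of transcripts corrected for length, that reached 1 in all 3 libraries, as did 39.3% of protein-coding genes. In a second quantification of the same libraries, made directly from reads, all 7 again reached it, against 49.9%. They fell into 2 tiers that did not overlap in any library. Slfn8, Slfn4, Slfn2 and Slfn5 stood between 119 and 324 TPM, and Slfn3, Slfn1 and Slfn9 between 9.01 and 35.3 TPM. Of the 7 genes, 4 had a mean TPM of at least 100, a level that 2.59% of protein-coding genes reached. The median of the 7 mean levels was 166 TPM, against 0.373 TPM over all protein-coding genes. The 4 upper genes held between 94.2% and 96.2% of all expected counts of the family, depending on the library. The family as a whole took 0.365%, 0.215% and 0.235% of all expected counts in replicates 1, 2 and 3. In bulk RNA, fewer cells with a transcript and less transcript per cell cannot be told apart.

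**Figure D1:**
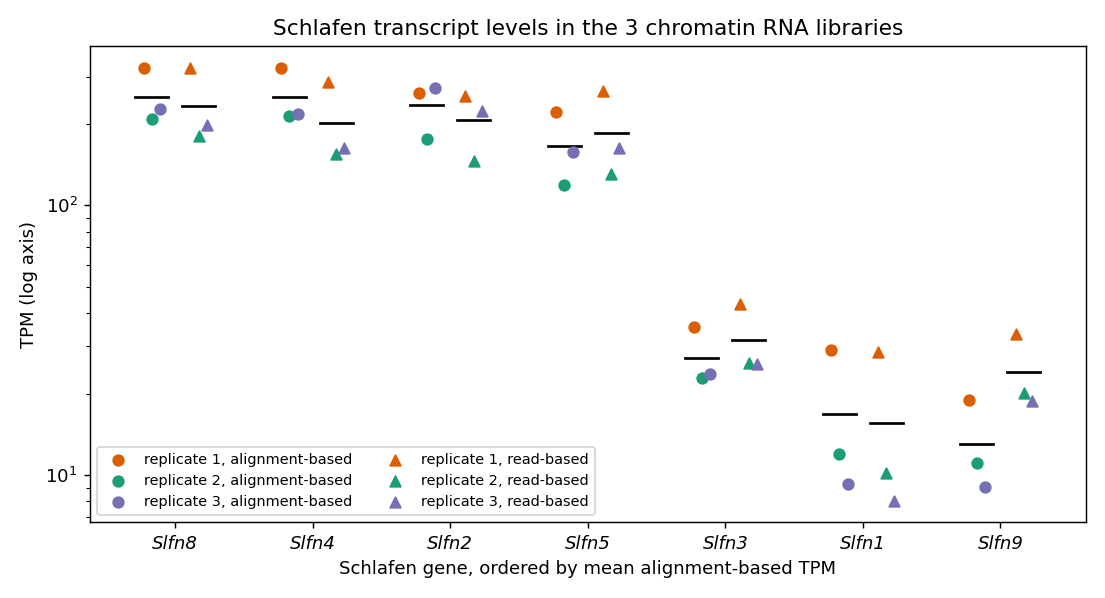
TPM (log axis) of the 7 Schlafen genes in each library, with circles for the alignment-based tables, triangles for the read-based tables and black lines for the mean of 3 libraries. Slfn8, Slfn4, Slfn2 and Slfn5 lie at or above 119 TPM in the alignment-based tables, and Slfn3, Slfn1 and Slfn9 at or below 35.3 TPM.

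The libraries held 13897176, 19597343 and 19348626 expected counts in replicates 1, 2 and 3. All 12 macrophage markers on a marker list were detected in both quantifications, among them Adgre1 (418 ± 109 TPM by alignment, SD, n = 3), Csf1r and Mertk. Of 14 markers of T and natural killer cells, 2 were detected by alignment, with a summed level of 11.1 to 12.7 TPM per library, and 4 in the read-based tables, with 27.7 to 34.2 TPM. The 2 detected by alignment were Cd28 (6.11 ± 1.35 TPM, SD, n = 3) and Cd5 (4.21 ± 0.718). Cd3d, Cd3e and Cd3g were at 0 by alignment, while the read-based tables gave Cd3d 12.5, 15.6 and 18.8 TPM and the other two under 1 TPM. Of 8 B cell markers none was detected by alignment (sum at most 1.09 TPM) and 2 in the read-based tables (14.9 to 20.1 TPM). Of 10 neutrophil markers none was detected by alignment (at most 0.670 TPM) and 1 in the read-based tables (5.28 to 7.24 TPM). Of 7 dendritic cell markers, 1 was detected by alignment (at most 4.07 TPM) and 2 in the read-based tables (9.20 to 9.99 TPM). The part of such cells in the Schlafen levels was not tested.

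The long genes came from the left side of the cluster. Slfn8 (ENSMUSG00000035208.16, chr11:83002158-83020810, minus strand, mm10) stood at 323, 209 and 227 TPM in replicates 1, 2 and 3, a mean of 253 ± 61.5 TPM (SD, n = 3). Replicate 1 was the highest, and the other two lay close together. Its level ranked 168th among the 21951 protein-coding genes. Slfn9 (ENSMUSG00000069793.12, chr11:82978390-82991830, minus strand) is its close relative and neighbour, and stood at 19.0, 11.1 and 9.01 TPM, a mean of 13.1 ± 5.29. Slfn9 was thus the lowest of the 7 genes by its mean, and replicate 1 was again the highest. The 2 genes have coding sequences of the same length, 2730 bases, of which 92.7% are identical, and the longest identical run is 139 bases. Their first 90 coding bases are shown because reads of such like genes can be hard to divide; capitals mark the 15 bases that differ, and both genes lie on chromosome 11.
Slfn8: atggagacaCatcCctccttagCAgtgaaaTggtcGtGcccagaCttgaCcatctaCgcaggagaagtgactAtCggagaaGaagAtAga
Slfn9: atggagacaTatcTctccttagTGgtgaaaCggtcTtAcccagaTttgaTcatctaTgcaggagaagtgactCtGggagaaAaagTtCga

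Slfn5 (ENSMUSG00000054404.13, chr11:82951349-82964840, plus strand), a long family member found in the nucleus, stood at 221, 119 and 157 TPM, a mean of 166 ± 51.8 TPM (SD, n = 3). Replicate 1 was the highest and replicate 2 the lowest. Its level ranked 305th among protein-coding genes.

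The genes of middle length lie next to each other at the right end of the cluster. Slfn4 (ENSMUSG00000000204.16, chr11:83175186-83190216, plus strand) stood at 324, 214 and 218 TPM, a mean of 252 ± 62.3 TPM (SD, n = 3), so that replicate 1 was again the highest. Slfn3 (ENSMUSG00000018986.10, chr11:83191330-83215154, plus strand), described in T cells and intestinal epithelium, stood at 35.3, 22.9 and 23.7 TPM, a mean of 27.3 ± 6.99. Slfn3 has forms of 1551 and 1920 coding bases, and only the shorter, Slfn3-201, was compared. Its coding sequence and that of Slfn4-201 were 95.3% identical over 1521 aligned bases. Despite that likeness, Slfn4 was the second and Slfn3 the fifth gene in the order of levels, with no overlap between their libraries.

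The short genes also differed. Slfn2 (ENSMUSG00000072620.3, chr11:83065112-83070678, plus strand) stood at 260.1, 175 and 272 TPM, a mean of 236 ± 52.6 TPM (SD, n = 3). It was the only one of the 7 genes whose highest alignment-based level was in replicate 3. Slfn1 (ENSMUSG00000078763.2, chr11:83116849-83122670, plus strand), a gene described as slowing T cell growth, stood at 29.1, 12.0 and 9.32 TPM, a mean of 16.8 ± 10.7. Replicate 1 was well above the other two. The coding sequences of Slfn1 and Slfn2 were 71.5% identical over 991 aligned bases.

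The order of levels was examined within libraries, as the mean difference of log2(TPM + 1) between each gene and the next lower one, for 6 pairs. With 3 libraries, the exact two-sided sign-flip permutation test cannot give a p below 0.25, so no pair could pass a threshold of 0.05, and no p was adjusted. Slfn8 and Slfn4 differed by 0.01 ± 0.05 on the log2 scale (SD, n = 3 libraries), less than the spread between libraries, and Slfn8 was the higher in 1 of 3 libraries (exact permutation p = 1). Slfn4 exceeded Slfn2 by 0.10 ± 0.36, in 2 of 3 libraries (exact permutation p = 1), so the top 3 genes were not separated by their spread. Slfn2 exceeded Slfn5 by 0.52 ± 0.28 in 3 of 3 libraries (exact permutation p = 0.25).

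The step between the tiers lay between Slfn5 and Slfn3. That difference was 2.54 ± 0.19 on the log2 scale (SD, n = 3, exact permutation p = 0.25), and on the linear scale Slfn5 was 6.27, 5.20 and 6.65 times Slfn3 in replicates 1, 2 and 3. Within the lower tier, Slfn3 exceeded Slfn1 by 0.80 ± 0.50 (SD, n = 3, exact permutation p = 0.25). In protein-coding transcripts alone that difference was 0.19 ± 0.47 (SD, n = 3, exact permutation p = 0.75), as the mean of Slfn3 was then 17.9 TPM beside 16.8 TPM for Slfn1. Slfn1 exceeded Slfn9 by 0.25 ± 0.30, in 3 of 3 libraries (exact permutation p = 0.25), a difference smaller than its spread. In the read-based tables the order of that last pair was the opposite, at -0.75 on the log2 scale.

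The genes shared a pattern over the libraries. Of the 7 genes, 6 were highest in replicate 1, as were 22.4% of detected protein-coding genes. In the read-based tables all 7 were, but the share of all protein-coding genes was not taken there, so that count has no background. The ratio of replicate 1 to the mean of the other two had a median of 1.52 over the 7 genes and ranged from 1.16 for Slfn2 to 2.73 for Slfn1, while its median over 8630 detected protein-coding genes was 0.857. Of 36 interferon-stimulated genes, 35 were highest in replicate 1, with a median ratio of 1.67. After each library was scaled to the same sum over protein-coding genes, a choice made after the data were seen, 6 of the 7 genes were still highest in replicate 1, against 18.3% of detected protein-coding genes.

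Replicate 1 also had the largest starting amount and the fewest counts. Its share of counts in Gm26917, an annotated noncoding RNA, was the lowest, at 10.8% against 18.2% and 20.1%. The part of these in the result was not tested. Slfn1 and Slfn9 differed at least 2-fold between the highest and the lowest library, by 3.12 and 2.11 times, as did 21.4% of detected protein-coding genes. The other 5 differed by 1.51 to 1.86 times. Without replicate 1, none of the 7 differed 2-fold, and without replicate 3, only Slfn1 did. The coefficient of variation of Slfn1, 63.8%, was at the 96.4th percentile of protein-coding genes whose mean TPM reached 1, and those of Slfn2, Slfn4 and Slfn8 were near the middle, at percentiles from 45.3 to 51.7.

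Reads of close relatives can be divided in more than 1 way, and the 2 quantifications were set side by side. The alignment-based tables were made from reads placed on transcripts, and the read-based tables directly from reads. Read-based levels of Slfn9 were 33.3, 20.2 and 18.8 TPM, against 19.0, 11.1 and 9.01 TPM by alignment. It was the only one of the 7 genes that was at least 1.5 times higher in the read-based tables in every library, as were 25.9% of detected protein-coding genes. The difference was 0.86 ± 0.11 on the log2 scale (SD, n = 3, exact permutation p = 0.25, the smallest possible), and on that scale Slfn9 was 1.81-fold higher.

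The other 6 genes moved less. Slfn8, Slfn4, Slfn2 and Slfn1 were lower in the read-based tables in all 3 libraries, 4 of 7 genes against 10.9% of detected protein-coding genes. The largest of these differences was that of Slfn4, -0.36 ± 0.16 on the log2 scale (SD, n = 3, exact permutation p = 0.25). Slfn5 and Slfn3 were higher in the read-based tables in all 3 libraries, by 0.15 ± 0.10 and 0.20 ± 0.08. The 2 tiers were kept: the upper 4 genes lay between 131 and 322 TPM and the lower 3 between 8.06 and 43.2 TPM.

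The sequence that the genes share was counted as words of 31 bases in their GENCODE M21 transcripts, on the same strand. Slfn8 shared 19.1% of its words with Slfn9 and 18.7% with the pseudogene Slfn10-ps, and Slfn9 shared 13.3% with Slfn8 and 14.3% with Slfn10-ps. Slfn3 shared 15.1% of its words with Slfn4 and 10.8% with the pseudogene Gm11427. Slfn5 shared none with any of the other 6 genes, and of Slfn1 98.0% of the words were found in no other gene. The split of counts within these 2 sets of relatives is therefore uncertain. How much of the difference between the quantifications comes from shared sequence was not tested. Within the 2 sets, the fold of read-based over alignment-based level was 1.81 for Slfn9, 0.91 for Slfn8, 1.14 for Slfn3 and 0.78 for Slfn4. Outside them it was 1.11 for Slfn5, 0.90 for Slfn1 and 0.87 for Slfn2. Slfn2 is not wholly apart from the sets, as it shared 6.98% of its words with Slfn4 and 2.75% with Slfn3.

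**Figure D2:**
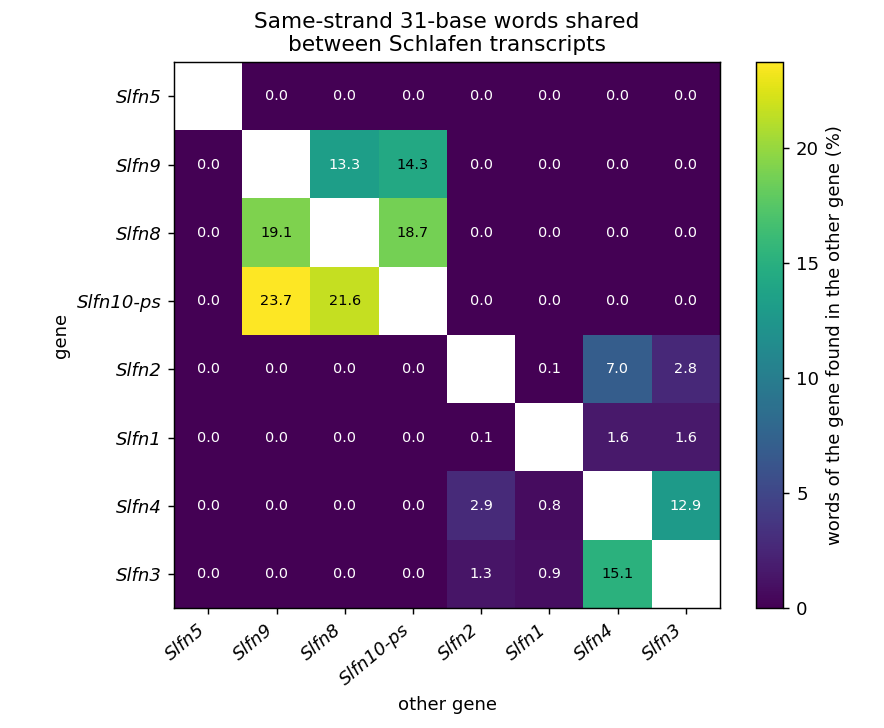
Share of each gene's 31-base transcript words (rows, %) that occur on the same strand in another family gene (columns). Slfn8, Slfn9 and Slfn10-ps form 1 block with shares of 13.3% to 23.7%, Slfn3 and Slfn4 another with 12.9% and 15.1%, and Slfn5 shares none.

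How the TPM of a gene was divided among its annotated transcripts also varied between libraries. Slfn4-201 and Slfn4-202 hold the same number of coding bases, 1806, and Slfn4-201 has an exon of 86 bases (chr11:83175828-83175913) that Slfn4-202 lacks. Their lengths, 3958 and 3703 bases, differ by more than that exon, so their shares do not measure its use alone. Slfn4-201 took 30.6% of the TPM of Slfn4 in replicate 1, 67.8% in replicate 2 and 67.6% in replicate 3. The read-based tables gave 28.7%, 59.3% and 59.5%. Slfn4-202 was thus the main form in replicate 1 and Slfn4-201 in the other two, in both quantifications.

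Slfn5 showed a like split. Slfn5-201, the longest transcript at 5979 bases, took 54.8%, 72.5% and 72.5% of its TPM by alignment, and 33.3%, 44.9% and 49.4% in the read-based tables. Replicate 1 was the lowest in both. Slfn5-203, a short form with 1134 coding bases, was highest in replicate 1, at 23.5% against 13.6% and 14.3% by alignment. Whether starting amount or depth has a part in these splits was not tested.

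Slfn8 has transcripts that skip a coding exon of 724 bases (chr11:83004057-83004780). Slfn8-203 and Slfn8-206 have 1221 coding bases, against 2730 in Slfn8-201. The skipped exon is only part of that difference, as their coding sequence also ends 23 bases into the exon that follows. Both junctions are shown, because reads across them tell the forms apart; small letters are the exon before, capitals the coding bases that follow it.
Slfn8-201: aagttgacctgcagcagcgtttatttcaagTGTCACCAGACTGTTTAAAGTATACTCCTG
Slfn8-203: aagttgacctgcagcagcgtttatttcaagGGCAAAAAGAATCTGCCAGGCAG
The skipping transcripts together took 33.3%, 32.2% and 32.2% of the TPM of Slfn8 by alignment, an even share over the libraries. The read-based tables gave 29.3%, 21.9% and 20.3%, and listed Slfn8-206 at 0 in all 3 libraries where alignment gave it 29.8, 54.1 and 37.6 TPM. The split between Slfn8-203 and Slfn8-206 is therefore uncertain. Their sum also differed between the quantifications, with means of 32.6% by alignment and 23.8% in the read-based tables.

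**Figure D3:**
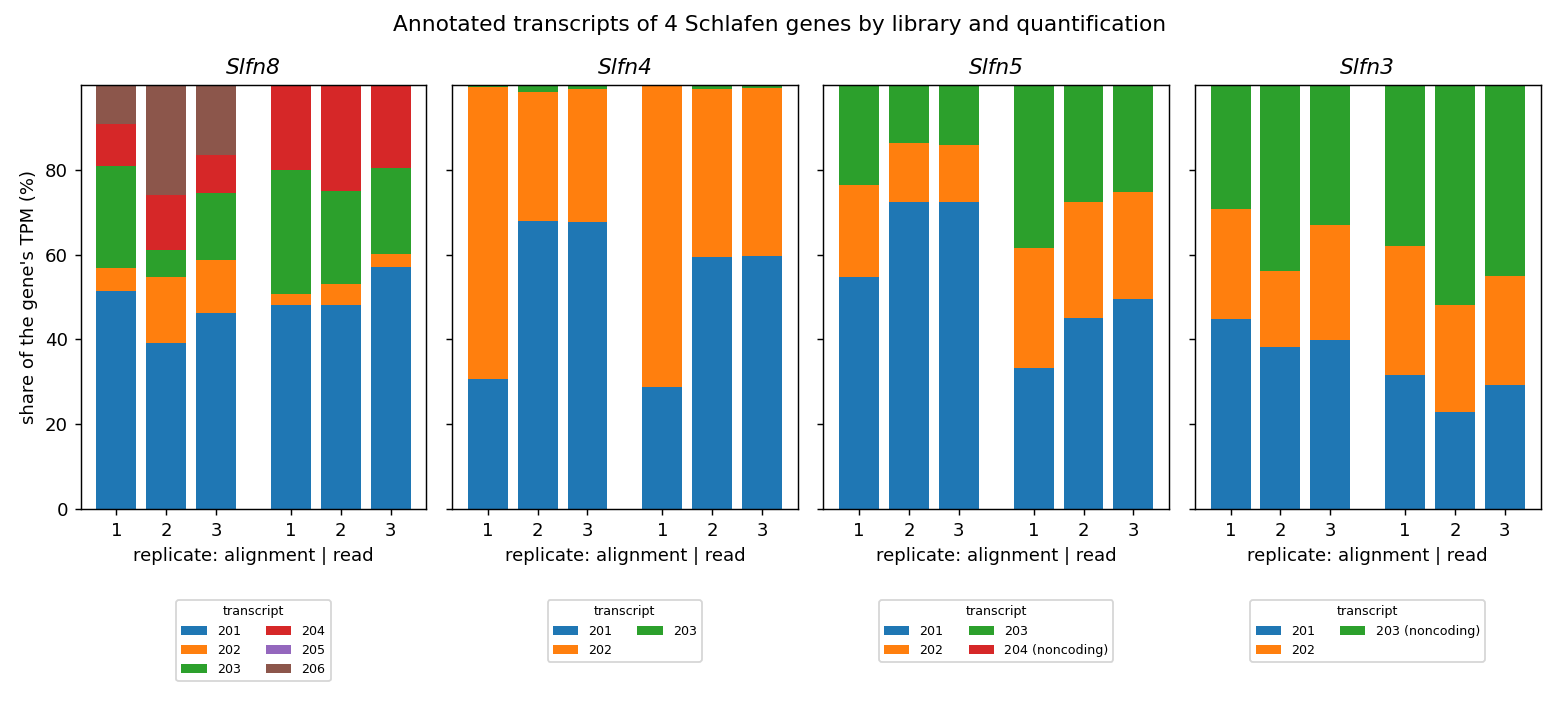
Share of each gene's TPM (%) by annotated transcript in Slfn8, Slfn4, Slfn5 and Slfn3, with replicates 1 to 3 of the alignment-based tables on the left of each panel and of the read-based tables on the right. Slfn4-201 holds 30.6% in replicate 1 against 67.8% and 67.6% in replicates 2 and 3 by alignment, and Slfn8-206 appears only in the alignment-based bars.

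Chromatin RNA can hold transcripts that are not spliced to the coding form, so the share of TPM outside transcripts annotated as protein-coding was taken. Slfn3 alone among the 7 genes had at least 10% of its TPM outside them in every library, as did 72.5% of detected protein-coding genes. Its noncoding transcript Slfn3-203 took 29.2%, 43.8% and 33.0% by alignment and 38.0%, 52.0% and 45.1% in the read-based tables. The median share outside was 0 over the 7 genes, 35.6% over the 36 interferon-stimulated genes and 44.0% over detected protein-coding genes. Slfn1, Slfn2, Slfn4, Slfn8 and Slfn9 have only transcripts annotated as protein-coding, so their share and the median of the 7 are 0 by annotation. That median therefore says nothing of how their RNA was spliced. None of the 7 genes has an annotated transcript with a retained intron, which 66.1% of detected protein-coding genes have, so reads of their introns have no transcript of that kind to be counted in.

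The other genes of the family differed widely. Slfn10-ps, a transcribed pseudogene between Slfn8 and Slfn2, stood at 63.4, 51.5 and 64.8 TPM, above Slfn3, Slfn1 and Slfn9 in every library. It shares 21.6% of its words with Slfn8 and 23.7% with Slfn9. Slfn14, known as a ribosome-associated nuclease of platelets and red cell precursors, was near 0, at 0.080, 0.10 and 0.19 TPM on 4, 6 and 11 counts. Slfnl1, a Schlafen-like gene, stood at 0.050, 0.15 and 0.040 TPM.

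Slfn5os, an antisense RNA of Slfn5, stood at 12.9, 6.45 and 1.43 TPM by alignment and at read-based levels of 64.3, 18.4 and 10.8 TPM. Its transcript Slfn5os-202 overlaps Slfn5-201 over 504 of 550 bases, and no source used here says whether the quantifications used strand. Its reads and those of Slfn5 can therefore not be told apart with certainty. Gm20234, antisense to Slfn2, stood at 73.0, 28.0 and 44.1 TPM by alignment and at read-based levels of 441, 239 and 373 TPM. Its exons overlap no exon of Slfn2, but 2 of them, of 305 and 245 bases, lie in the intron of Slfn2. Chromatin RNA can hold that intron, and the use of strand is not known. Reads of Gm20234 and of unspliced Slfn2 RNA can therefore also not be told apart with certainty.

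**Figure D4:**
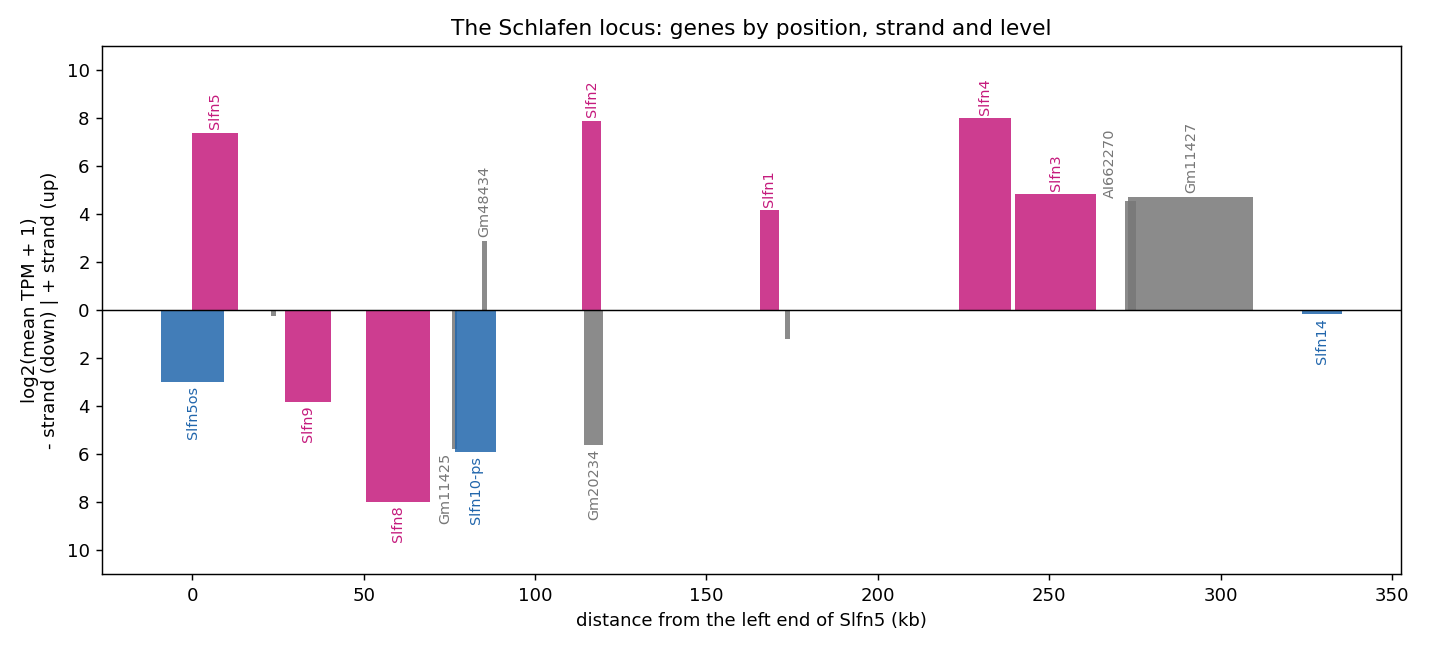
Genes of the cluster by distance from the left end of Slfn5 (kb) and mean level as log2(mean TPM + 1), with plus-strand genes drawn upwards, minus-strand genes downwards, the 7 genes in pink, other family genes in blue and the rest in grey (small RNAs left out). Genes of the upper tier (Slfn5, Slfn8, Slfn2 and Slfn4) and of the lower one (Slfn9, Slfn1 and Slfn3) lie among each other, and Slfn14 is near 0.

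Along the cluster, which spans 264 kb (chr11:82951349-83215154), genes of the upper and lower tier lie among each other. In order of position, the levels were 166 TPM for Slfn5, 13.1 for Slfn9, 253 for Slfn8, 236 for Slfn2, 16.8 for Slfn1, 252 for Slfn4 and 27.3 for Slfn3. Slfn4 and its next neighbour Slfn3 lie on the same strand and differed in every library. Unc45b, the protein-coding gene to the left of Slfn5, had 0 counts in all 3 libraries by alignment. Of the annotated pseudogenes and noncoding genes next to a member, Gm11424, Gm48462 and Gm48490 were listed at 0 by alignment in all 3 libraries, 1190001M18Rik and Gm48467 had mean levels of 0.183 and 1.30 TPM, and Gm11425, to the right of Slfn8, stood at 54.9 ± 19.2 TPM (SD, n = 3). To the right of Slfn3, the noncoding gene AI662270 stood at 22.2 ± 1.68 TPM (SD, n = 3) and the pseudogene Gm11427 at 25.1 ± 4.41.

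Set among 36 interferon-stimulated genes, on a list chosen with earlier results of these data known, the 7 genes lay between the 10 highest and the lowest of them. All 36 were detected, with a median of 149 TPM, against 166 TPM for the 7 Schlafen genes. Counted in transcripts annotated as protein-coding alone, the medians were 72.3 and 166 TPM. Most of the 7 genes have only such transcripts, so by annotation their levels could not fall in this count. Of the 36 interferon-stimulated genes, 19 have an annotated transcript with a retained intron, which this count leaves out, and none of the 7 has one. The part of annotation in the gap between these medians was not tested. Mx1 (an antiviral GTPase, 1207 ± 257 TPM, SD, n = 3), Parp14 (an ADP-ribosyltransferase, 987 ± 177) and Rnf213 (a large ubiquitin ligase, 912 ± 9.86) were the highest. Igtp, an immunity-related GTPase, was the lowest at 12.9 ± 7.23.

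Of the 36 genes, 10 had a higher mean than Slfn8 and Slfn4, 14 than Slfn2 and 18 than Slfn5. Slfn3 and Slfn1 had 34 above them, and Slfn9 had 35. Of 18 genes of interferon signalling, 17 were detected. Irf1 (781 ± 147 TPM, SD, n = 3) and Stat2 (461 ± 143), which encode transcription factors, were among the highest, and the lowest was Socs1 (1.73 ± 0.144), an inhibitor of it. Slfn8 and Slfn4 stood below both of these factors in every library. Of 12 genes on a list put together for transfer RNA and restriction of translation, 11 were detected, as were 39.3% of protein-coding genes. The median of the 12 was 55.6 TPM, and not every gene on that list has such a role.

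**Figure D5:**
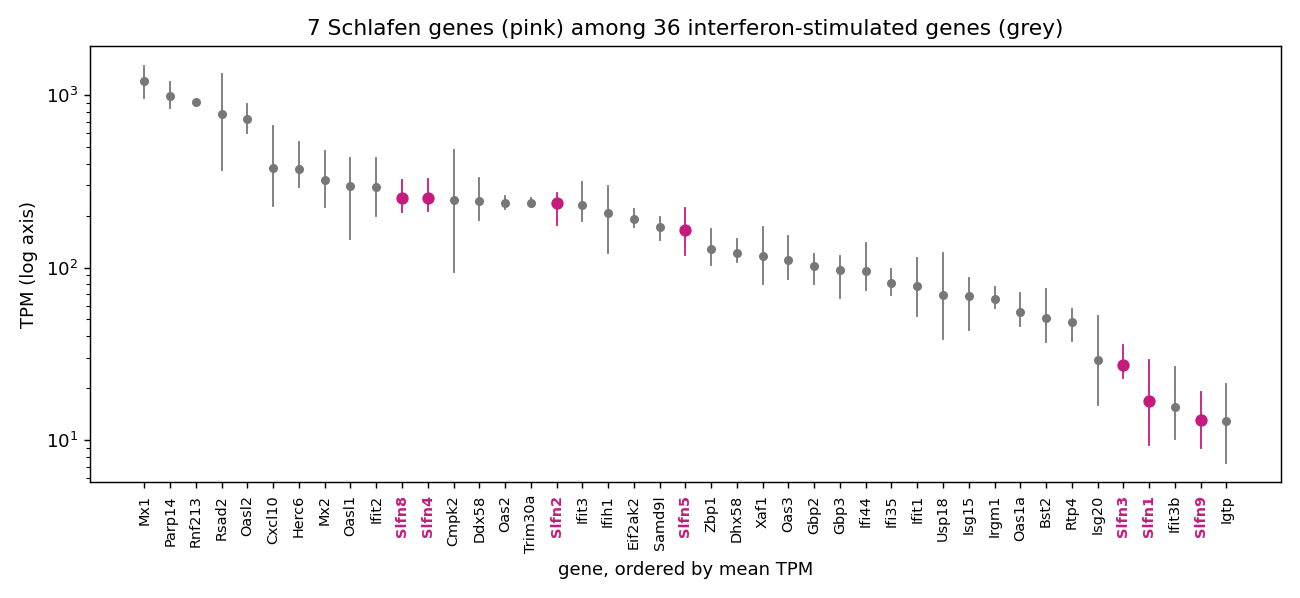
Mean TPM (log axis) of the 7 Schlafen genes (pink) and 36 interferon-stimulated genes (grey), ordered by mean, with vertical lines from the lowest to the highest of 3 libraries. Slfn8 and Slfn4 have 10 of the 36 above them, and Slfn9 has 35.

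Of protein-coding genes outside the family, those most like each member were found by the largest difference in log2(TPM + 1) over the 3 libraries. For Slfn8 they were Lcp2, Nfxl1 and Msr1, each within 0.14 in every library. For Slfn4 they were Nfxl1, Lcp2 and Gm17334, within 0.13. For Slfn2, the gene whose highest library was replicate 3, they were Nfkb1, Vim and H2-Q4, within 0.18. For Slfn5 they were Wdr91, Sdcbp and Mthfs, within 0.10, for Slfn3 Cd69, Pdlim5 and Opa3, within 0.11, and for Slfn9 P4ha1, St3gal5 and Rtn3, within 0.11. Slfn1 had no gene that close: Ifit3b, Nmi and Tpst1 came within 0.27, and Ifit3b, itself an interferon-stimulated gene, stood at 26.5, 10.3 and 10.1 TPM. With 3 libraries, such likeness is a description of levels only.

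The promoters of all 7 genes were found in RefSeq (GRCm38.p6, the build of the files), as 8 windows of 250 bases before to 50 after a start site, since Slfn8 has 2. They were searched on both strands for the letters GAAANNGAAA, a short form of the element that interferon-activated factors bind. A match lay in 3 of the 7 genes, Slfn5, Slfn8 and Slfn9, against 3.44% of 32851 windows of the same length. The segments are shown because they put the related genes Slfn8 and Slfn9 side by side; each is written 5′ to 3′ on the strand of its gene, with the match in capitals (in Slfn8 and Slfn9 as its reverse complement).
Slfn5, chr11:82951912-82951991: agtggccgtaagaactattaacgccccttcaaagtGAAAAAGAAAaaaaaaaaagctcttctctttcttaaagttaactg
Slfn8, chr11:83020814-83020893: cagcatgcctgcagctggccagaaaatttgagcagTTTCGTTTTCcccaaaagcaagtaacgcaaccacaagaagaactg
Slfn9, chr11:82991831-82991910: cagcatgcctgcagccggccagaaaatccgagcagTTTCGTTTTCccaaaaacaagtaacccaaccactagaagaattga

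Slfn8 and Slfn9 hold the same 10 letters, 48 and 45 bases before their start sites, while their mean levels were 253 and 13.1 TPM. Seen from the other start site of Slfn8, the same match lay 136 bases before it. In Slfn5 the match lay 155 bases before the RefSeq start site, which is also the start of Slfn5-201. The GENCODE gene begins farther to the left, with the noncoding transcript Slfn5-204, so the match lies inside the span given above for the gene. Slfn2, Slfn4, Slfn3 and Slfn1 had no match in these windows, among them 2 genes of the upper tier. The letters TTCNNNGAA, a short form of the element of STAT dimers, matched in none of the 7, against 8.30% of all windows. The letters GGGANNTTCC, a short form of a kappaB element, also matched in none, against 1.47%. A match describes letters in a window and is not a site, and none of these counts was tested.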

How the data were processed

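For each of the 3 libraries the authors deposited 2 tables from reads aligned to transcripts, for genes and for transcripts, and 1 transcript table derived from reads without alignment, on mm10 with GENCODE M21, per the labels and the file headers. Programs and use of strand are named in none of the sources used here. The expected counts and estimated counts deposited by the authors are reads or fragments per transcript or gene, which need not be whole. The TPM values deposited by the authors are corrected for effective length and set to a fixed total per library. The TPM that a gene has in the read-based tables is the sum over its transcripts. Posterior mean TPM and its credible intervals came with the alignment-based tables. The labels mention no molecular identifiers.

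Genes were joined by identifier. Detection meant that TPM reached 1 in each of the 3 libraries, and differences were taken on log2(TPM + 1) within libraries, with an exact two-sided sign-flip permutation test. CPM were expected counts scaled to the same sum in each library. No count model was fitted, because there is 1 group. Words of 31 bases came from the GENCODE transcripts, coding identity from a Biopython 1.88 alignment, and promoter sequences from RefSeq (GRCm38.p6). Calculations used Python 3.11.15, numpy 2.4.6 and pandas 2.3.3 and were tested on simulated data. Named genes were the 7 members, the other Slfn genes, genes that overlap a member or lie next to it, the highest 3 and lowest 1 of the interferon lists, and the 3 genes nearest to each member in level; 1 gene that this rule names is not reported here. Cell type markers came from the marker lists, and those named, like Gm26917 and Gm27598, were picked after their values were seen. The members, lists and motifs were chosen with earlier results of these data known. Alternatives were the read-based tables, CPM, posterior mean TPM, coding transcripts alone, another pseudocount, other detection thresholds and each library left out. Scaling to the same protein-coding sum was added after the data were seen.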

Additional observations from a re-analysis of the deposited data

How the results depend on the processing

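All 7 genes stayed detected at TPM thresholds of 0.5 and 5, in the read-based tables, as CPM, as posterior mean TPM and without any 1 library. The 4 upper genes were the same 4 in every unit tried. The median level of the family was 7.38 on the log2 scale, 8.29 as CPM, which is not corrected for length, and 7.12 to 7.57 with 1 library left out. The median of the interferon-stimulated genes was 7.22, 8.22 as CPM and 6.19 in protein-coding transcripts alone, and 6.89 to 7.31 with 1 library left out. As CPM, 3 differences changed direction: Slfn8 minus Slfn4 to -0.16, Slfn2 minus Slfn5 to -1.10 and Slfn1 minus Slfn9 to -1.28. In the read-based tables Slfn4 minus Slfn2 became -0.066 and Slfn1 minus Slfn9 became -0.75. With 1 library left out, Slfn8 minus Slfn4 ranged from -0.019 to 0.026 and Slfn4 minus Slfn2 from -0.015 to 0.30. The difference of Slfn5 between the quantifications changed from 0.15 to -0.34 as CPM. The share of Slfn3-203 was 35.4%, 45.0% in the read-based tables, 46.3% by counts, and 31.1% to 38.4% with 1 library left out. Of the 7 genes, 0 to 2 differed at least 2-fold with 1 library left out. The cause of these changes was not tested, including the part of the length that CPM leaves in. No paired analysis was possible because there is 1 group, so no groups could be paired by replicate number; gene differences were taken within libraries throughout. Depth limits Slfn14 and Slfnl1, with at most 11 counts per library; counts cover counting error only.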

Other observations

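Small RNAs inside the Schlafen cluster were listed very differently by the 2 quantifications. Mir7679, a microRNA gene inside Slfn9 on the same strand, had 0 counts in all 3 libraries by alignment and 1053, 408 and 421 TPM in the read-based tables, on 254, 191 and 164 estimated counts. Gm27598, an annotated microRNA gene inside Slfn10-ps, had 0 counts by alignment and 87.0, 51.3 and 28.2 TPM in the read-based tables, on 21, 24 and 11 estimated counts. The posterior mean TPM and credible bounds of both were also 0 in all 3 libraries. Gm11424, a longer gene with 0 counts, had upper bounds of 0.31, 0.28 and 0.29 TPM. Whether alignment could count such short genes was not tested, so their 0 is no measure of absence. As TPM is corrected for length, few counts give them a high TPM. Gm11425, a pseudogene between Slfn8 and Slfn10-ps, stood at 76.9, 46.2 and 41.5 TPM by alignment, with replicate 1 again the highest.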
